A study of Mus musculus with 16 samples.

Results

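The Egr and Nr4a genes encode transcription factors that neurons switch on quickly after they fire. This account covers all 7 of them, Egr1, Egr2, Egr3, Egr4, Nr4a1, Nr4a2 and Nr4a3, out of 22572 gene names in a table of hippocampal transcript levels. They were taken by gene name, each had 1 locus in the table, and all 7 passed the filter that kept genes averaging 1 FPKM or more across 16 libraries. FPKM counts fragments per kilobase of a transcript and is scaled to the size of the library. The family was selected on earlier results of the same data, in which FPKM of several members stood lower in the knockout. The knockout comparisons are therefore given below as descriptions, with no p-value for these genes. Where some of them are among the genes called in the whole table, the count is printed beside the share of all genes, and nothing is read from it. The comparisons of fructose with water were not used in that choice and were tested.

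Egr1 to Egr4 are zinc-finger factors that bind a short GC-rich DNA element. Nr4a1, Nr4a2 and Nr4a3 are orphan nuclear receptors that bind DNA as monomers at an element called the NBRE and need no known ligand to act. Both families are immediate early genes: calcium entry and MAP kinase signalling act through CREB and SRF bound at their promoters, with no new protein needed. In the hippocampus they are known for their part in synaptic plasticity and memory, and Nr4a2 also for its role in dopamine neurons.

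The samples were hippocampi of male C57BL/6 mice. WT mice were compared with mice of the line given as Bgn gene knockout (Bgn0/-), written BgnKO here. Bgn is an X-linked gene for biglycan, a small proteoglycan of the extracellular matrix, and the deleted part of the gene is not stated in these sources. Each genotype drank regular water or water with 15% (w/v) fructose for 6 weeks from 3 months of age, which makes 4 groups: WT on water, WT on fructose, BgnKO on water and BgnKO on fructose. Every group had 4 libraries. The labels do not say whether the 4 came from separate animals, so the spread behind every p-value may be a technical one between samples of shared origin.

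Bgn itself averaged 15.9 ± 6.47 FPKM in WT on water and 16.1 ± 7.37 in WT on fructose (SD, n = 4 each). In BgnKO it averaged 6.62 ± 1.45 on water and 6.39 ± 0.932 on fructose. The library labelled WT fructose replicate 1 had 5.42 FPKM of Bgn, inside the BgnKO range of 4.46 to 7.60. Its Ndufs5, a complex I gene that was at most 0.216 FPKM in every BgnKO library, was at 13.96 FPKM, against 9.82 to 13.7 in the other WT libraries. The line thus differs from WT in Ndufs5 as well as in Bgn. Every comparison of BgnKO with WT is one of lines, and the part of Bgn loss alone was not tested. Summed choroid plexus markers in the library labelled WT fructose replicate 1 were 234 FPKM, the lowest of the 16. In BgnKO fructose replicate 4 they were 9248 FPKM, the highest, and neuron markers were at their lowest, 4245 FPKM. Several counts that rest on this pair of libraries are also given without them, while medians and counts of the marker lists include both. Pooled over groups, replicate 1 also tended to stand apart, in ranges that overlap. The root mean square log2 difference over genes was 0.230 to 0.345 between libraries numbered 1 and 0.179 to 0.437 among the others. Between the kinds it was 0.302 to 0.560. Read depth is unknown for FPKM, so no counting interval is given.

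The genes lie on separate chromosomes (GENCODE vM21 annotation, GRCm38). Egr3 is at chr14:70077203-70082614 on the plus strand. Egr2 spans chr10:67535475-67542188 on the plus strand, and Egr4 chr6:85511121-85513589 on the minus strand. Nr4a1 runs from 101254269 to 101274795 on chromosome 15 and Nr4a3 from 48045153 to 48086447 on chromosome 4, both on the plus strand. Nr4a2 is at chr2:57106830-57124003 on the minus strand. Whether reads were counted by strand is not stated, so antisense transcripts at these loci cannot be told apart from the genes.

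Promoter sequences are shown as background, because CREB and SRF are the factors best known to act on these genes. They come from the RefSeq promoter table (GRCm38.p6), read 5′ to 3′ on the strand of the gene and ending at the base before an annotated start, except Nr4a3. The table had windows for 5 of the 7 genes, without Egr1 and Egr3. Capitals mark the short form of the CRE (TGACG or its complement CGTCA), the element of CREB, in every window. They also mark the CArG box of SRF in Egr2 (CCATATATGG), the G-rich form of the Egr element in Nr4a1 (CGCCCCCGC, the complement of GCGGGGGCG) and a TATA match in Nr4a2 (TTTATA, the complement of TATAAA). The windows are Egr2 chr10:67537619-67537868, Egr4 chr6:85513590-85513839, Nr4a1 chr15:101266596-101266845, Nr4a2 chr2:57124004-57124253 and Nr4a3 chr4:48045055-48045152.
Egr2: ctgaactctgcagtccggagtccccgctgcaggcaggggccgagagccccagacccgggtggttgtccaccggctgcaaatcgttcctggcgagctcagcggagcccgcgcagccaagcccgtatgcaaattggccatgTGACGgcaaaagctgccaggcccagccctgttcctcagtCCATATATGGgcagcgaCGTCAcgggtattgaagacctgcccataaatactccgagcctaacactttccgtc
Egr4: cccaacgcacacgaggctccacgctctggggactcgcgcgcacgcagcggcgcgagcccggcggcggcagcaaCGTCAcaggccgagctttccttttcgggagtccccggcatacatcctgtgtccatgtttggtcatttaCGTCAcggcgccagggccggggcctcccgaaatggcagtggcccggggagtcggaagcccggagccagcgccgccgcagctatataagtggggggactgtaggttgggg
Nr4a1: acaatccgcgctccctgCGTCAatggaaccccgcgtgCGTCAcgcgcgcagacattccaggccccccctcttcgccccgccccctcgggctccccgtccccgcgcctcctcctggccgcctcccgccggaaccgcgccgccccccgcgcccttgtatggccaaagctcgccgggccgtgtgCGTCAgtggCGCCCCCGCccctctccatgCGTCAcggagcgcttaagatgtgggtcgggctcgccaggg
Nr4a2: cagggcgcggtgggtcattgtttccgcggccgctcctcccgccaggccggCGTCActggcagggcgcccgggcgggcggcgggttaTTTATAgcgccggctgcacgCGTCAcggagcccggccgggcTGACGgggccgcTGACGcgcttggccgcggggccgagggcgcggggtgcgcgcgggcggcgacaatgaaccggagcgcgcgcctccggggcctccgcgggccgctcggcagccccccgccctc
Nr4a3: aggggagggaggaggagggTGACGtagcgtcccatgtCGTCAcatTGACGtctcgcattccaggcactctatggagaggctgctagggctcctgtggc

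Each printed window holds at least 2 short CRE matches: 2 in Egr2, 2 in Egr4, 4 in Nr4a1, 4 in Nr4a2 and 3 in the printed bases of Nr4a3. Over both strands, 17.8% of 32851 windows of 250 bases in the table hold one, against 7 of the 9 windows of these genes. Counted by gene, a count added after seeing the data, 19.8% of 27025 genes have a match in any window, and so do all 5. These shares were not matched for base composition. The full CRE (TGACGTCA) is in none of the 5 genes' windows and in 1.55% of all. The Egr2 window has its CArG box 63 to 72 bases before the start, between its short CRE matches, and 1.47% of all windows hold one. The Egr element GCGTGGGCG is in none of the 5 and in 0.536% of all, its G-rich form GCGGGGGCG in Nr4a1 and 2.57% of all. The NBRE (AAAGGTCA) is in none of the 5 and in 1.34% of all, and TATAAA in Nr4a2 and 12.4% of all. That Nr4a2 match is on the opposite strand, 159 to 164 bases before the start. TATAAA was searched as exact letters, so tatataag near the end of the Egr4 window is unmarked. These are letter matches in windows near a start. No binding was measured, and whether CREB or SRF has a part in the lower levels was not tested. Egr2 has 5 windows in the table for alternative starts. The one printed was chosen, after its letters were seen, from the pair that lies fully outside exons, and the other of that pair has no short CRE. In all, 3 of the 5 Egr2 windows, which overlap each other, hold it. The Egr2 and Nr4a1 windows lie inside the annotated gene spans but outside exons. For Nr4a3 only the 98 bases outside annotated exons are printed.

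Egr1, at chr18:34859823-34864984 on the plus strand, was the most abundant of the 7 in WT hippocampus and averaged 41.5 to 51.6% of the WT level in BgnKO. Its FPKM in WT on water were 87.9, 102.7, 111.1 and 111.1 (replicates 1 to 4), and in BgnKO on water 47.3, 48.6, 66.1 and 50.9. On fructose they were 73.7, 100.4, 63.2 and 133.8 in WT and 32.5, 47.3, 40.7 and 33.5 in BgnKO. The genotypes did not overlap on either drink, although the lowest WT library on fructose (63.2) lay under the highest BgnKO library on water (66.1). The BgnKO mean was 51.6% of WT on water, a log2 fold of -0.95 (SE 0.19), and 41.5% on fructose, -1.20 (SE 0.19). All folds are differences of log2(FPKM + 1), so the change of a scarce transcript is understated. In bulk tissue, fewer cells that express a gene and less of its RNA per cell cannot be told apart.

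Egr2, which in peripheral nerve drives myelination and in neurons is an activity-induced factor, was the scarcest of the 7. It had 1.88, 1.95, 1.73 and 2.11 FPKM in WT on water, against 0.439, 0.485, 1.19 and 0.795 in BgnKO. WT on fructose had 1.41, 2.18, 0.887 and 3.51 FPKM, and BgnKO had 0.302, 0.712, 0.501 and 0.570. All BgnKO libraries were below all WT libraries of the same drink. The BgnKO mean was 37.9% of WT on water (log2 fold -0.78, SE 0.21) and 26.1% on fructose (-0.91, SE 0.21). Egr2 passed the 1 FPKM filter through the WT groups, since its BgnKO means were 0.727 and 0.521 FPKM. A gene that passes in this way has to differ between the groups.

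Egr3, which like Egr1 is tied to plasticity and memory, was second in abundance in 3 of the 4 groups and differed less. WT on water had 48.8, 63.1, 75.1 and 66.6 FPKM, and BgnKO 41.2, 53.1, 50.9 and 54.8. The lowest WT library, replicate 1, fell inside the BgnKO range. On fructose the values were 50.8, 57.3, 53.1 and 79.1 in WT and 42.3, 50.9, 40.7 and 33.3 in BgnKO, where the ranges met at 50.8 and 50.9. The BgnKO mean was 78.9% of WT on water (log2 fold -0.33, SE 0.16) and 69.5% on fructose (-0.51, SE 0.16).

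Egr4, the fourth zinc-finger factor of the family, had 16.7, 14.1, 15.9 and 18.6 FPKM in WT on water and 12.1, 7.56, 10.4 and 8.53 in BgnKO. On fructose WT had 17.4, 13.9, 11.4 and 14.5 FPKM, and BgnKO 13.9, 8.85, 8.54 and 9.32. The genotypes were apart on water. On fructose BgnKO replicate 1 stood above WT replicate 3, and replicate 1 was the highest library of Egr4 in 3 of the 4 groups. The mean was 58.9% of WT on water (log2 fold -0.72, SE 0.16) and 70.9% on fructose (-0.47, SE 0.16). In replicates 2 to 4 alone the folds were -0.81 and -0.52.

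Nr4a1, the best-known immediate early gene among the nuclear receptors, had 32.8, 34.9, 33.4 and 38.9 FPKM in WT on water and 17.2, 16.5, 22.7 and 25.1 in BgnKO. WT on fructose had 24.5, 34.5, 22.8 and 51.4 FPKM, and BgnKO 16.5, 14.5, 14.5 and 14.2. The genotypes did not overlap on either drink. BgnKO on fructose was the tightest group, 14.9 ± 1.08 FPKM (SD, n = 4), while WT on fructose spread to 33.3 ± 13.1. The BgnKO mean was 58.2% of WT on water (log2 fold -0.77, SE 0.20) and 44.8% on fructose (-1.04, SE 0.20).

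Nr4a3, the third receptor, varied least of the receptors in WT on fructose and in BgnKO on water. Its FPKM were 22.6, 31.2, 31.2 and 30.4 in WT on water and 17.9, 19.6, 21.5 and 19.2 in BgnKO, and on fructose 26.6, 27.9, 25.4 and 30.3 in WT and 19.2, 15.8, 17.3 and 15.2 in BgnKO. Every WT library was above every BgnKO library, whatever the drink. The BgnKO mean was 67.7% of WT on water (log2 fold -0.53, SE 0.10) and 61.4% on fructose (-0.68, SE 0.10).

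Nr4a2 differed least. WT on water was even, with 31.6, 29.7, 32.8 and 31.8 FPKM, and BgnKO ran from 18.4 in replicate 1 through 25.5 and 29.95 to 30.6. On fructose the values were 14.7, 28.1, 25.1 and 36.9 in WT and 18.9, 29.5, 22.0 and 18.4 in BgnKO, so the genotypes overlapped on both drinks. The library labelled WT fructose replicate 1 gave the lowest Nr4a2 value of all 16. The mean was 82.9% of WT on water (log2 fold -0.29, SE 0.22) and 84.6% on fructose (-0.19, SE 0.22). In replicates 2 to 4 alone the folds were -0.13 on water and -0.36 on fructose, and in replicate 1 alone the differences were -0.75 and 0.34.

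**Figure D1:**
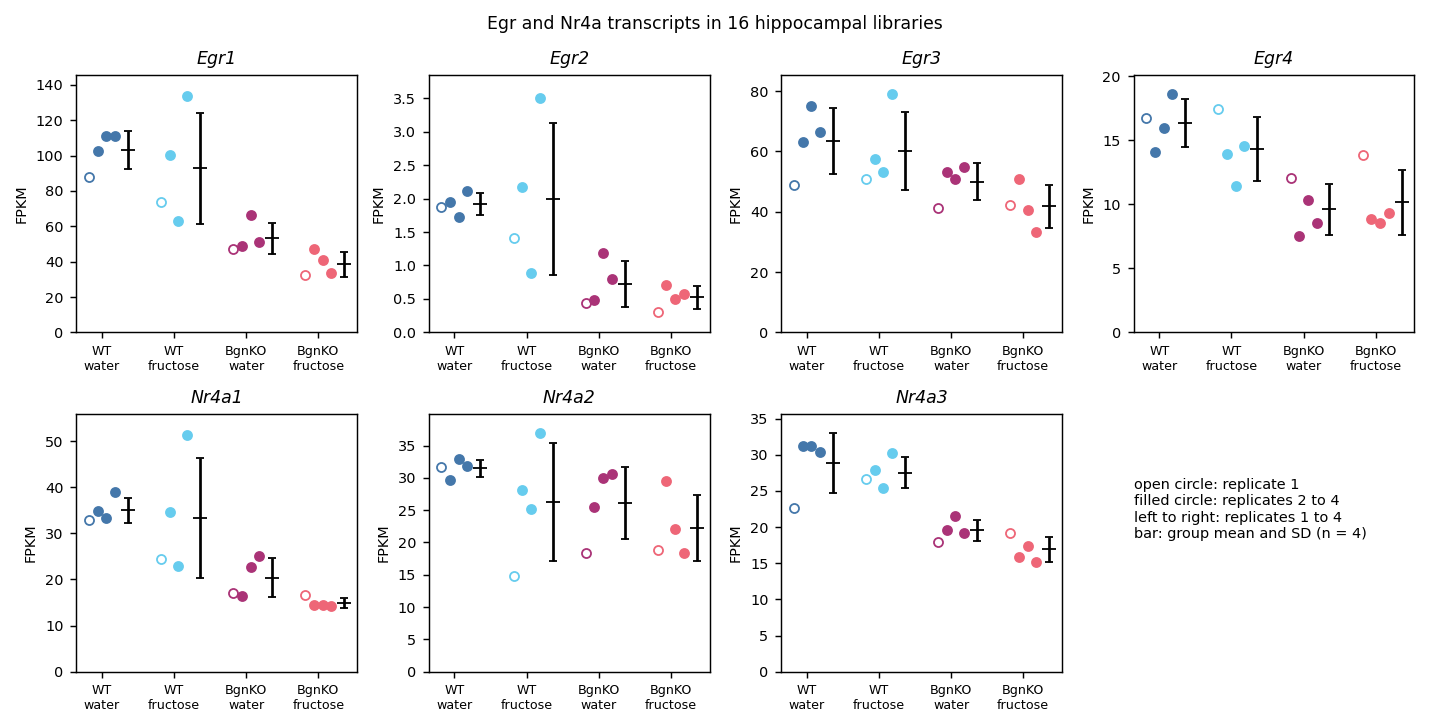
FPKM of each gene (vertical axis, from 0) in the 4 groups, one point per library, with the group mean and SD to the right of the points (n = 4). BgnKO libraries lie below WT libraries of the same drink with no overlap for Egr1, Egr2, Nr4a1 and Nr4a3 on both drinks, and the WT fructose group is the most spread for Egr1, Egr2, Nr4a1 and Nr4a2.

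Side by side, the lower level in BgnKO had a like order of size on both drinks, with Egr1, Egr2 and Nr4a1 furthest from WT and Nr4a2 nearest. The median log2 fold over the 7 was -0.72 on water and -0.68 on fructose. Over all 12648 genes tested it was -0.001 and -0.011. All 7 were below 0 on both drinks, as were 50.5% of all genes on water and 52.5% on fructose. On water 5 of 7 genes were lower in BgnKO with no overlap (all but Egr3 and Nr4a2), where 2.26% of all genes were. On fructose it was 4 of 7 (all but Egr3, Egr4 and Nr4a2), where 6.43% of all genes were. Without BgnKO fructose replicate 4 and the library labelled WT fructose replicate 1, an alternative chosen after seeing the data, 5 of 7 did not overlap on fructose, against 13.3% of all genes. In replicates 2 to 4 alone, also chosen afterwards, the number was 6 of 7 on each drink, against 9.65% and 18.6% of all genes, and only Nr4a2 overlapped. All of these counts and medians include Egr2, which passed the filter through the WT groups.

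In the limma fit over all genes, a gene counts as called where its Benjamini-Hochberg adjusted p is below 0.05. On water 0.213% of genes were called lower in BgnKO, among them Egr1 and Nr4a3, 2 of the 7. On fructose 2.13% were, among them Egr1, Egr2, Nr4a1 and Nr4a3, 4 of the 7. Egr2 is counted here although it passed the filter through the WT groups. With 1 library left out, the count on water was 0 for WT replicates 2, 3 and 4 and BgnKO replicates 2 and 4 of that drink, for WT fructose replicate 2 and for BgnKO fructose replicate 3. It was 1 when WT replicate 1 or BgnKO replicate 1 or 3 on water was left out, or replicate 4 of BgnKO on fructose, and 3 without WT fructose replicate 4 or BgnKO fructose replicate 1. On fructose it was 3 without WT replicate 2 or 4 or BgnKO replicate 3 or 4 of that drink, where Egr2 was not called, and 5 without BgnKO replicate 1. Over all genes, 0.15 to 0.198% were called lower in the fits with 0 on water. It was 0.174 to 0.221% in those with 1, and 0.206 and 0.253% in those with 3. On fructose 0.633 to 1.07% of all genes were called lower in the fits with 3, and 3.49% in the fit with 5. The log2 fold of each of the 7 was below 0 in all 161 combinations of gene and alternative fit on either drink, with Nr4a2 on fructose as near to 0 as -0.005 without WT fructose replicate 4.

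**Figure D2:**
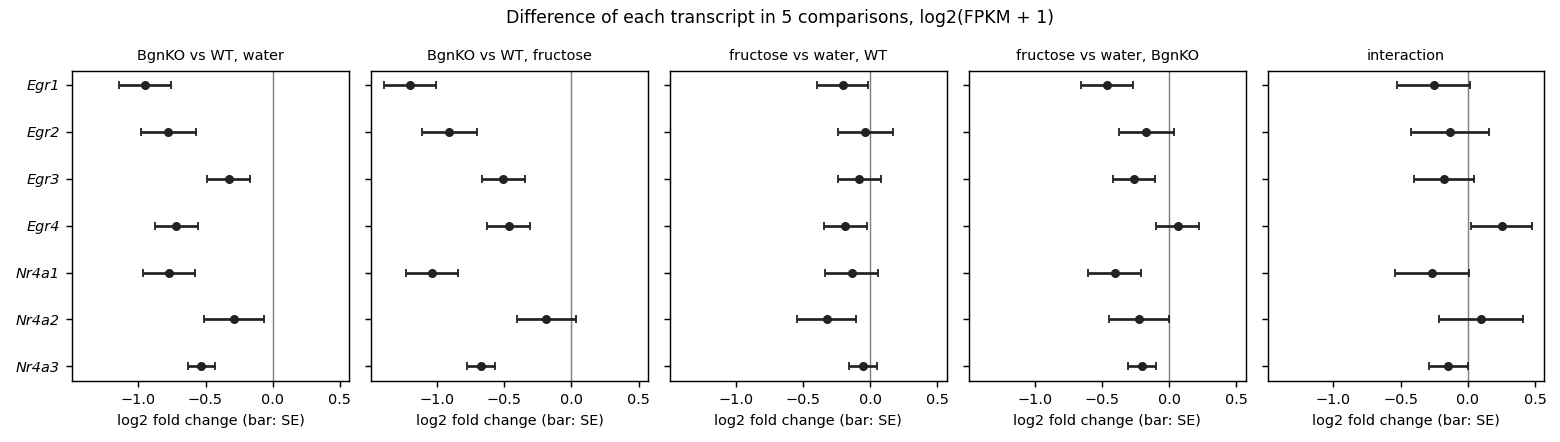
Log2 fold change with its SE (horizontal axis, log2(FPKM + 1) scale) of each gene in the 5 comparisons. All 7 points lie below 0 in both comparisons of BgnKO with WT, between -0.95 and -0.29 on water and between -1.20 and -0.19 on fructose, and the points of the other 3 comparisons lie between -0.46 and 0.25.

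Fructose left the 7 genes without a called change in either genotype. In WT all 7 had a log2 fold below 0 for fructose against water, as 45.7% of all genes did. They ran from -0.32 (Nr4a2, SE 0.22) to -0.04 (Egr2, SE 0.21), with an adjusted p of 1 for each in limma. The test called 1 of 12648 genes there (0.00791%), and at an unadjusted p under 0.05 it held 0 of the 7, beside 2.08% of all genes. The 95% interval for Egr1 was -0.62 to 0.20, so neither direction can be read from these libraries. WT libraries of the 2 drinks overlapped for all 7, whereas 1.87% of all genes were apart.

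In BgnKO 6 of the 7 had a log2 fold below 0 for fructose, all but Egr4, as 48.2% of all genes did. Egr1 was at 38.5 ± 6.91 FPKM on fructose and 53.2 ± 8.73 on water (SD, n = 4 each), with all 4 fructose libraries under the water mean. Its log2 fold was -0.46 (SE 0.19, 95% interval -0.87 to -0.05), with an adjusted p of 0.347 in limma. It was the only one of the 7 with an unadjusted p under 0.05 (0.0299), as 12.9% of all genes were. With the replicate number as a block, 2 of the 7 were, Egr1 (0.0259, adjusted p 0.133) and Nr4a1 (0.0358, adjusted p 0.155), as were 27.2% of all genes. Nr4a1 had a log2 fold of -0.40 (SE 0.20, adjusted p 0.399 in limma) and Nr4a3 -0.20 (SE 0.10, adjusted p 0.422), with all 4 fructose libraries under the water mean for both. Egr3 was at -0.26, Nr4a2 at -0.22, Egr2 at -0.17 and Egr4 at 0.06, with adjusted p from 0.502 to 0.895. No gene in the table was called in this comparison (0%), and the drinks were apart for 0 of the 7, against 3.99% of all genes.

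The difference between these fructose effects, the interaction of genotype and drink, ran from -0.27 for Nr4a1 to 0.25 for Egr4, with an adjusted p of 0.999 for each of the 7 in limma. The interaction equals the BgnKO against WT fold on fructose less that on water, the comparisons the family was selected on. It is therefore not free of that choice. It was below 0 for 5 of the 7 and for 52.3% of all genes. It was called for 1 gene in the table (0.00791%). At an unadjusted p under 0.05 it held 0 of the 7 and 2.91% of all genes. Intervals were wide: for Egr1 the 95% interval of the interaction was -0.83 to 0.32. The comparisons within WT and between genotypes on water share the WT water libraries, and those within BgnKO share its libraries in the same way.

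Levels of different genes can be set side by side because FPKM is per length. In WT on water Egr1 came first, then Egr3, then Nr4a1, Nr4a2 and Nr4a3, then Egr4, then Egr2. The range of Nr4a2 overlapped those of Nr4a1 and Nr4a3, which did not overlap each other. In WT on fructose the means ran Egr1, Egr3, Nr4a1, Nr4a3, Nr4a2, Egr4 and Egr2, and the ranges of neighbours in this order overlapped down to Egr4, with Egr2 apart. In BgnKO Egr1 and Egr3 overlapped on both drinks, and on fructose Egr3 had the higher mean. The ratio of Egr1 to Egr3 was 1.65 ± 0.133 in WT on water, 1.52 ± 0.256 in WT on fructose, 1.07 ± 0.184 in BgnKO on water and 0.926 ± 0.111 in BgnKO on fructose (SD, n = 4 each). The ratio of Nr4a1 to Nr4a2 went from 1.11 ± 0.102 and 1.30 ± 0.314 in WT to 0.789 ± 0.120 and 0.699 ± 0.163 in BgnKO. Both ratios follow from the unequal folds above and are no separate result.

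Spread between libraries of a group was larger for these genes than for most in 3 of the 4 groups. In WT on water the median coefficient of variation of the 7 was 10.6%, against 10.7% over all genes tested. It was 34.0% in WT on fructose (10.3% over all genes), 20.6% in BgnKO on water (10.8%) and 17.9% in BgnKO on fructose (12.5%). In WT on fructose replicate 4 was above the group mean for all 7 and highest for 6, and replicate 3 was lowest for 5. The other libraries of that group were mixed. Replicate 1 was below the group mean for 6 but highest for Egr4, and replicate 2 was above it for 5 and below it for 2. Replicate 4 of WT on water and replicate 3 of BgnKO on water were also above their group mean for all 7. When group means and the replicate 1 offset were removed, the correlation between pairs of the 7 over the 16 libraries was 0.005 to 0.89, with a median of 0.57 over 21 pairs. Egr1 with Egr2 (0.89) and Egr2 with Nr4a1 (0.85) were highest, and Nr4a2 with Nr4a3 lowest. Without the 4 WT fructose libraries, a setting chosen after seeing the data, it was -0.19 to 0.60 with a median of 0.39, and 17 of 21 pairs were above 0. With group means alone removed, also chosen after seeing the data, it was -0.45 to 0.91 over the 16 libraries, with a median of 0.53 and 18 of 21 pairs above 0. There Egr4 with Nr4a2 was lowest (-0.45), and Egr4 was also below 0 with Egr3 (-0.19) and Egr1 (-0.03). The points share libraries and depth, and these values are a description only.

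**Figure D3:**
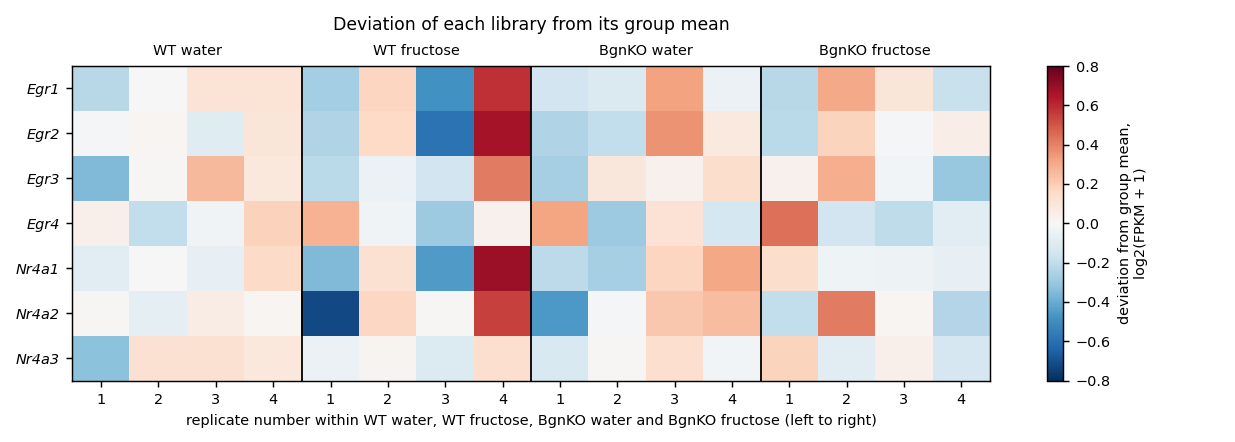
Deviation of each library from its group mean on the log2(FPKM + 1) scale (colour), with genes in rows and libraries in columns by group and replicate number. Replicate 4 of WT on fructose is above its group mean for all 7 genes, replicate 3 is below for 6, and replicate 1 of BgnKO on fructose is high for Egr4.

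Replicate 1 differed from replicates 2 to 4 in a gene-specific way. Averaged over groups, the log2 difference was -0.46 for Nr4a2, -0.29 for Egr1, -0.27 for Egr3, -0.24 for Egr2, -0.17 for Nr4a1 and -0.10 for Nr4a3, and 0.36 for Egr4. It was not steady over the groups for some genes. Nr4a2 was at 0.009 in WT on water and -0.96 in WT on fructose. In BgnKO on fructose Nr4a1 (0.19), Nr4a3 (0.24) and Egr3 (0.04) were above 0. Egr1 and Egr2 were below 0 and Egr4 above 0 in every group. Each group holds a library numbered 1. In replicates 2 to 4 alone the folds of BgnKO against WT were -0.97 for Egr1, -0.70 for Egr2, -0.36 for Egr3, -0.73 for Nr4a1 and -0.60 for Nr4a3 on water. On fructose they were -1.22, -0.92, -0.59, -1.20 and -0.75 in the same order.

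Among the 10 genes outside the family whose residual pattern over the 16 libraries was most like that of the 7, by mean Pearson r, were Bend4 (0.69), Gfm1 (0.67), Otud3 (0.67) and Fosb (0.66). AI429214 (0.64), Zfp27 (0.63), Prkcb (0.62), Rrp15 (0.62) and Xylb (0.61) were also among them. Fosb, an immediate early partner in AP-1, was the single one on the list of other activity-induced genes. With group means alone removed 4 of the 10 were again among the first 10, and by Spearman rho 7 were. In the comparison of BgnKO with WT 1 of the 10 was called on water (AI429214, log2 fold -0.44, adjusted p 0.0114 in limma) and 2 on fructose, AI429214 (-0.49, adjusted p 0.00242) and Prkcb (-0.27, adjusted p 0.0182). Fosb was at -0.54 on water (adjusted p 0.518) and -0.27 on fructose (adjusted p 0.424).

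Of other genes that neurons induce with activity, most had folds below 0 in BgnKO, and few were called after adjustment. On this list, written from general knowledge with earlier results of the data known, 53 of 56 genes were tested. At an unadjusted p under 0.05 in limma stood 15 on water, beside 5.33% of all genes. The call on water can be set against 0.213% of all genes called lower. On water 46 had a log2 fold below 0, with a median of -0.17 against -0.001 over all genes, and 1 fell by the test: Plk3, a kinase induced with activity, from 4.25 ± 0.201 to 3.02 ± 0.233 FPKM (SD, n = 4 each; log2 fold -0.39, SE 0.07, adjusted p 0.0316 in limma, lower in 4 of 4 libraries). It was not called without WT water replicate 2, 3 or 4 or any 1 of the BgnKO water libraries (adjusted p 0.00853 to 0.119 over 23 alternatives). Next came the AP-1 factors Junb, at 31.6 ± 6.63 against 50.1 ± 6.61 FPKM (log2 fold -0.66, adjusted p 0.111), and Fos, at 4.99 ± 2.74 against 10.8 ± 2.35 FPKM (-1.08, adjusted p 0.300). Gpr3, a receptor that raises cyclic AMP, was at -0.40 (adjusted p 0.410). Earlier results already showed part of this pattern, so it is no independent support.

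On fructose 38 of the 53 had a log2 fold below 0 in BgnKO, with a median of -0.19 against -0.011 over all genes. By the test 4 fell, where 2.13% of all genes were called lower. At an unadjusted p under 0.05 in limma stood 16, beside 21.3% of all genes. Plk3 went from 4.06 ± 0.488 to 2.56 ± 0.152 FPKM (log2 fold -0.50, adjusted p 0.00203 in limma) and passed in all 23 alternatives. Klf10, a zinc-finger factor of early response, was at -0.61 (adjusted p 0.0123), the phosphatase gene Dusp5, which switches off ERK, at -0.81 (adjusted p 0.0258), and Plk2, a kinase that weakens strongly driven synapses, at -0.48 (adjusted p 0.0363). For each of them all 4 BgnKO libraries were below the WT mean. Without that pair of libraries the list had 2 calls, with adjusted p of up to 0.122 for Dusp5, 0.0757 for Klf10 and 0.129 for Plk2 over the alternatives. Among fructose libraries left out singly, Dusp5 was not called without WT replicate 2 or 4 or BgnKO replicate 3 or 4, and Plk2 without any WT library or BgnKO replicate 3 or 4. With a replicate block the list had 12 calls, where 10.5% of all genes were called lower and 19.6% in either direction. It had 11 with a term for replicate 1 (9.39% lower, 17.3% in either direction) and 12 in replicates 2 to 4 alone (6.14% and 10.9%), so more calls in the list went with more calls over all genes. With single libraries left out it had 2 to 10, with 10 without BgnKO fructose replicate 1. For fructose against water limma called 0 of the 53 in WT and 0 in BgnKO. At an unadjusted p under 0.05 were 1 and 5, beside 2.08% and 12.9% of all genes.

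Upstream of the 7, the list of calcium, kinase and promoter factors held 41 tested genes of 44. On water 34 had a log2 fold below 0, with a median of -0.07, and limma called 0. At an unadjusted p under 0.05 stood 1, beside 5.33% of all genes: Camkk2, a calmodulin-dependent kinase kinase (log2 fold -0.19, adjusted p 0.811). On fructose 34 were below 0 again, with a median of -0.17, and 2 fell, where 2.13% of all genes were called lower. At an unadjusted p under 0.05 in limma stood 12, beside 21.3% of all genes. Ppp3ca, the catalytic subunit of calcineurin, went from 647 ± 56.1 to 441 ± 78.0 FPKM (SD, n = 4 each; log2 fold -0.56, SE 0.12, adjusted p 0.0170 in limma). Mkl2, a coactivator of SRF, went from 36.1 ± 3.06 to 26.0 ± 2.82 FPKM (-0.46, SE 0.10, adjusted p 0.0170). Ppp3ca was not called without BgnKO fructose replicate 3 or 4, nor without the pair named above (adjusted p up to 0.106), and Mkl2 not when replicate 2 or 4 of WT or replicate 4 of BgnKO on fructose was left out (up to 0.0617). The count was 14 with a replicate block, 11 with a term for replicate 1, 9 in replicates 2 to 4 alone and 1 without the pair, where 0.577% of all genes were called lower. The shares of all genes in the other fits are those given for the activity-induced list.

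Partners and described targets of the factors gave no calls between genotypes in limma. At an unadjusted p under 0.05 stood 5.33% of all genes on water and 21.3% on fructose, against which the counts of these lists can be set. Of 17 tested partners and co-regulators 0 were called on either drink, with 0 and 4 at an unadjusted p under 0.05. Nab2, which Egr factors induce and which represses them in turn, was at -0.27 on water (adjusted p 1) and -0.41 on fructose (adjusted p 0.190). Rxra, a dimer partner of Nr4a receptors, was at 0.28 on fructose (adjusted p 0.0734). Of 12 genes described as Egr targets in neurons 0 were called, with 1 and 3 at an unadjusted p under 0.05. Arc, which controls AMPA receptor uptake at synapses, had 49.3 ± 18.7 FPKM in BgnKO and 74.6 ± 13.6 in WT on water (SD, n = 4; log2 fold -0.65, adjusted p 0.859), and 39.7 ± 7.06 against 74.8 ± 31.3 on fructose (-0.82, adjusted p 0.109). Syn1, a synaptic vesicle protein gene, was at -0.37 on fructose (adjusted p 0.0626). Of 9 tested genes described as Nr4a targets 0 were called, with 2 and 3 at an unadjusted p under 0.05. Their median was 0.17 on water, with 7 above 0, and 0.08 on fructose. The neurotrophin gene Bdnf was at -0.29 and -0.34, and the chaperone gene Hspa5 at 0.37 on fructose (adjusted p 0.0711). With the replicate number as a block, where 19.6% of all genes were called on fructose, 1 partner was called higher and 5 lower, 3 Egr targets were called lower, and of the Nr4a targets 2 were called higher and 1 lower.

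**Figure D4:**
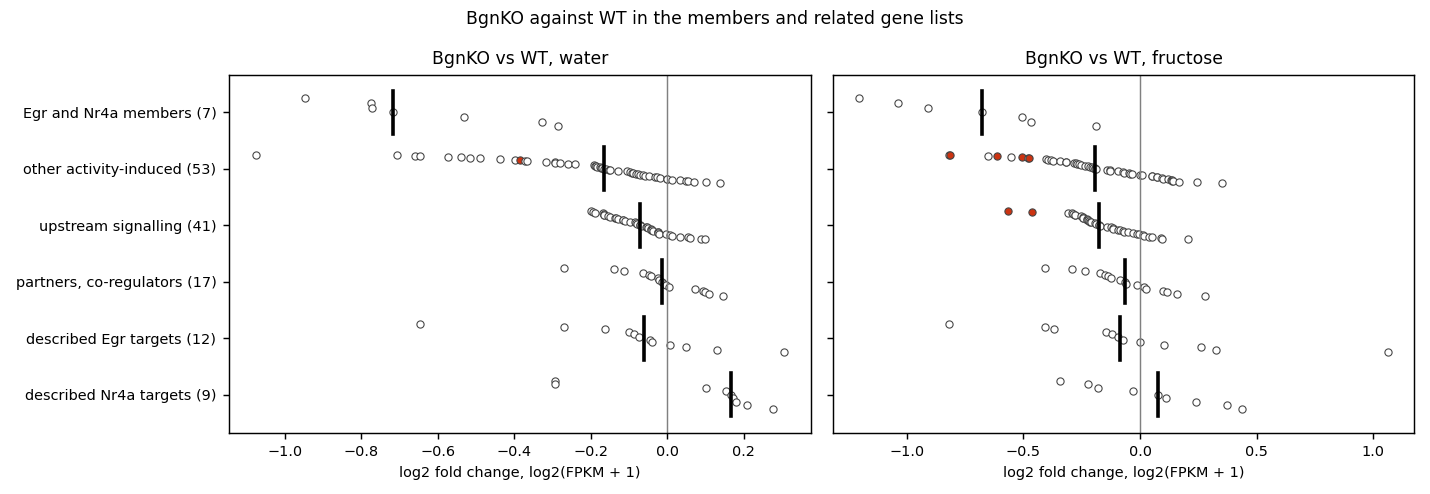
Log2 fold change of BgnKO against WT (horizontal axis, log2(FPKM + 1) scale) for the 7 genes and 5 lists of related genes, on water and on fructose, with one point per gene and a bar at the median. Filled points are called at an adjusted p below 0.05 (calls are not marked for the 7, which have open points). The medians are -0.72 and -0.68 for the 7, which were selected on lower values, and -0.17 and -0.19 for the other activity-induced genes.

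Several marker lists of cell types also stood off 0 between genotypes, some of them more on fructose than on water, while others stayed near 0. All 12 neuron markers were found, and 11 of 12 had a log2 fold below 0 in BgnKO on both drinks (median -0.09 on water and -0.22 on fructose). Of the neuron markers limma called 0, with 1 and 4 at an unadjusted p under 0.05, beside 5.33% and 21.3% of all genes. Their summed level was 4875 to 6125 FPKM in WT on water, 4697 to 5287 in BgnKO on water, 5592 to 6043 in WT on fructose and 4245 to 5416 in BgnKO on fructose. Without BgnKO fructose replicate 4 the last range was 5113 to 5416 FPKM. For pyramidal cells of area CA1, where Egr1 is known to be strongly expressed, 6 of 8 markers were below 0, with medians of -0.09 and -0.25. Their sum was 386 to 414 FPKM in WT on water, 343 to 379 in BgnKO on water, 367 to 403 in WT on fructose and 272 to 398 in BgnKO on fructose. Without BgnKO fructose replicate 4 the last range was 294 to 398 FPKM. Wfs1, a CA1 marker, fell on fructose from 81.9 to 49.2 FPKM (log2 fold -0.74, adjusted p 0.00346 in limma), and Iyd, a CA3 marker, from 2.69 to 1.12 (-0.81, adjusted p 0.0173; not called without the pair, 0.0751). Of the 7 CA3 markers on that list, 3 were above 0 on fructose, and the list's median was -0.014 there and 0.0001 on water. Markers of dentate granule cells had medians of 0.02 and -0.11.

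Astrocyte markers were above 0 for 10 of 11 on water (median 0.11) and for 11 of 11 on fructose (median 0.42). Gja1, Gfap and Aqp4 were called higher on fructose, and lost that call in 6, 12 and 13 of 23 alternatives. Microglia markers were above 0 for 9 and 10 of 10, with medians of 0.13 and 0.37, and markers of meninges and fibroblasts for 12 of 12 on both drinks, with medians of 0.48 and 0.47. Choroid plexus markers had medians of 0.02 on water and 1.11 on fructose, and their sum ranged from 234 to 9248 FPKM over the libraries. Oligodendrocyte markers had a median of -0.16 on water, with 8 of 9 below 0, and 0.02 on fructose. Medians of endothelial markers were 0.13 and 0.29, of interneurons 0.05 and -0.07, and of cortex and subiculum -0.04 and 0.06. Striatum markers were at 0.02 and 0.006, and thalamus markers at 0.06 and -0.09. None of the lists had a marker at 0 in a whole group among those found. Over the 15 marker lists limma called 0 genes on water, with 6 of 134 at an unadjusted p under 0.05, and 5 on fructose, with 39 of 134. Over all genes 0.387% were called on water and 3.76% on fructose, with 5.33% and 21.3% at an unadjusted p under 0.05. The part of these shifts in the lower Egr and Nr4a levels was not tested.

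**Figure D5:**
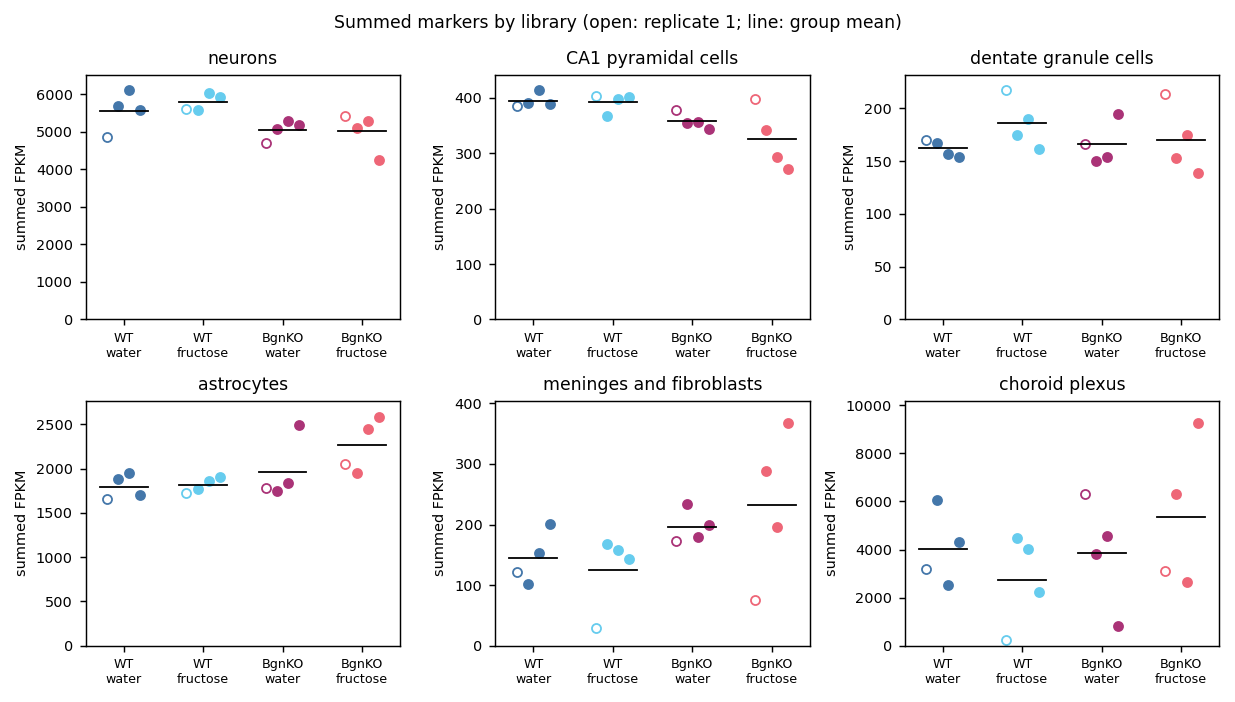
Summed FPKM of the markers of 6 cell types or tissues in each library by group (vertical axes from 0, bars at the group means, open points for replicate 1). Neuron and CA1 sums average lower in BgnKO, astrocyte sums higher, and the choroid plexus sum spans 234 to 9248 FPKM.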

How the data were processed

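Libraries of poly(A) RNA primed with random hexamers were sequenced on an Illumina HiSeq, per the labels' protocols. The submitters' processing notes name TopHat, Bowtie, Cufflinks, Cuffdiff and the build mm10, without versions. Strand setting and normalization are not given in the sources used here. The authors deposited FPKM for 27670 loci. The 4269 loci without a gene name (46.8 to 70.4% of FPKM per library) were left out, and loci of one name were summed, which left 22572 names and 342721 to 376209 FPKM per library.

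limma 3.58.1 in R 4.3.3 (group means, eBayes with trend) was fitted on log2(FPKM + 1) for the 12648 genes averaging 1 FPKM or more, with Benjamini-Hochberg adjustment over all of them, and tested on simulated data. SDs are of FPKM. The members, the pathway and marker lists and the alternatives were chosen with earlier results of these data known. Genes named are the 7 members, Bgn, up to 4 genes per list by unadjusted p and the 10 most alike in pattern, of which a gene is not reported here. Ndufs5 and the counts without certain libraries were chosen after values were seen. For fructose against water same-number libraries deviated together in every pair (r 0.118 to 0.699 in WT, 0.197 to 0.612 in BgnKO, highest for replicate 1). For BgnKO against WT they did so in every pair on fructose (r 0.09 to 0.75) but not in every pair on water (r -0.04 to 0.69).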

Additional observations from a re-analysis of the deposited data

Results flagged for a closer look

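In 4 of 36 groups of 4 libraries (7 genes, Bgn and Ndufs5 in each group), 1 library lay so far from the others that its gap over the group's range exceeded Dixon's 95% critical value. Chance alone gives about 1 such group in 20. All were replicate 1. Pooled over groups and over all genes, libraries with that number tended to stand apart, in ranges that overlap. Egr4 in BgnKO on fructose was at 13.9 FPKM in replicate 1 and at 8.54 to 9.32 in the others. Nr4a1 in the same group was at 16.5 FPKM in replicate 1 and at 14.2 to 14.5 in the others. Nr4a3 in WT on water was at 22.6 FPKM in replicate 1 and at 30.4 to 31.2 in the others. Bgn in BgnKO on water was at 4.46 FPKM in replicate 1 and at 7.19 to 7.60 in the others.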

How the results depend on the processing

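For BgnKO against WT the number of genes called, 49 on water and 475 on fructose, became 125 and 2483 with a replicate block, 126 and 2190 with a term for replicate 1, and 79 and 1377 in replicates 2 to 4 alone. It was 58 and 137 without BgnKO fructose replicate 4 and the library labelled WT fructose replicate 1. Leaving out single libraries gave 30 to 57 genes for water and 147 to 940 for fructose. The number of the 7 genes called on water, 2, became 1 without that pair, without a filter on low FPKM and with median-ratio rescaling, and was 0 to 3 with single libraries left out. It was 3 with the block. On fructose it was 4, 6 with the block and 3 to 5 with single libraries left out. With the block 0.506% of all genes were called lower on water and 10.5% on fructose, against 0.213% and 2.13% without it. With single libraries left out it was 0.15 to 0.253% on water and 0.633 to 3.49% on fructose. On water the share was 0.237% without the pair, 0.168% without the filter and 0.213% with rescaling. In replicates 2 to 4 alone 3 genes were called for fructose in WT and 2 for the interaction, against 1 each. Blocked or not, 0 of the 7 were called for fructose against water in either genotype. Signs that turned were all of uncalled folds. For fructose in WT, Egr2 was at 0.0374 in replicates 2 to 4 alone, 0.0429 without the pair and -0.26 to 0.16 with single libraries left out, Egr3 at -0.22 to 0.00508 and Nr4a1 at -0.37 to 0.0109. For fructose in BgnKO, Egr4 was at -0.083 to 0.17 with single libraries left out. For the interaction, Egr2 was at -0.33 to 0.0896, and Nr4a2 at -0.23 in replicates 2 to 4 alone, -0.06 without the pair and -0.14 to 0.28 with single libraries left out. The cause was not tested. Using the highest locus in place of the sum changed no level, as each gene has 1 locus. The unknown depth limits Egr2 most, with BgnKO means under 1 FPKM.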
